A study of Mus musculus with 6 samples.

Results

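The genes described here make up the machinery that builds melanosomes and carries them through the cell. They were chosen by symbol from a list of 35 names, and all 35 were found among the 22535 gene rows of the table. RNA sequencing of poly(A) RNA compared 2 lines of B16-BL6, an invasive mouse melanoma line. The labels give one line a control guide as its genotype (sgControl, n = 3 libraries) and the other a guide named for Ndufs4 (sgNDUFS4, n = 3 libraries), and both grew in serum-containing DMEM with no treatment named. Ndufs4 encodes a subunit of respiratory complex I, and the comparison was made to look for transcript changes that go with the immunogenicity of the edited line. The labels do not say whether each line is a clone or a pool, or whether the libraries come from separate cultures, so each p-value reflects only how far these libraries scatter, and that scatter may be technical.

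Melanosomes are lysosome-related organelles. They are built from endosomes, which receive pigment enzymes by vesicle traffic, and when mature they travel along microtubules and actin to the cell edge. The adaptor complex AP-3 and the complexes BLOC-1, BLOC-2 and BLOC-3 sort the cargo, and Rab GTPases mark the vesicles and recruit motors. Inherited loss of many of these genes causes Hermansky-Pudlak, Griscelli or Chediak-Higashi syndrome, with pale skin or hair in people and diluted coats in mice. Dtl stands apart in this list. It encodes a substrate adaptor of a ubiquitin ligase that acts in DNA replication, and it is not known as a melanosome gene.

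Depth ran from 20090607 to 25947374 gene reads per library. The 6 melanocyte-lineage markers Pmel, Mlana, Dct, Tyrp1, Mitf and Sox10 summed to between 15377 and 15893 CPM (gene reads scaled to library depth) in sgControl and between 14505 and 15529 CPM in sgNDUFS4. The sums hide opposite changes. Pmel and Mitf were higher in sgNDUFS4, at 0.34 and 0.16 on the log2 scale. Mlana, Dct, Tyrp1 and Sox10 were lower, at -0.42, -0.31, -0.15 and -0.12 (adjusted p at most 0.0047 for each marker, limma test described below). Of 5 endothelial markers Pecam1, Cdh5, Kdr and Tek were at 0 in every library, and Vwf reached 0.135 CPM in 1 sgControl library. Of 5 T-cell markers Cd3e, Cd3d, Cd3g and Cd2 were at 0, and Lck was present in all libraries, between 0.293 and 1.35 CPM. Of 5 keratinocyte markers Krt10 and Dsg3 were at 0, and the sum with Krt5, Krt14 and Trp63 was 0 to 0.180 CPM in sgControl and 0.125 to 0.271 CPM in sgNDUFS4. Of 5 fibroblast markers Dcn and Lum were at 0, and the sum with Pdgfra, Col1a1 and Col1a2 was 41.8 to 44.1 CPM in sgControl and 41.4 to 46.1 CPM in sgNDUFS4. Ndufs4 itself was at 53.9 ± 1.37 CPM in sgControl and 15.9 ± 0.927 CPM in sgNDUFS4 (SD, n = 3 each).

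CACGTG is the core of the E-box bound by MITF, TFEB and TFE3, transcription factors of melanosome and lysosome genes. RefSeq promoters on GRCm38.p6, from 250 bases before to 50 bases after a start, were found for 31 of the 35 members, the others being Ap3s1, Bloc1s6, Rab38 and Snapin. CACGTG, which reads the same on both strands, was present in a promoter of 9 of these 31 genes, or 29.0%. It was present in 12.3% of the 8619 tested genes that have a promoter in the table and in 7.15% of all 32851 promoters of the same length. The 9 genes were Atp7a, Bloc1s1, Bloc1s3, Hps1, Hps3, Hps5, Mlph, Rab27a and Vps33a. A match describes letters and is not a binding site, and the search was chosen after the values were known. The related core CATGTG (searched also as CACATG, its other strand, and unable to overlap CACGTG) was present for Bloc1s1, Bloc1s4, Hps1 and Myo7a, and in 14.2% of all promoters.

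The 250 bases before the start are shown for the 3 members that fell most, Mlph, Rab17 and Atp7a. Hps3 and Vps33a are shown as examples of members with a site close to the start. Capitals mark CACGTG.
Mlph, chr1:90914850-90915099, plus strand: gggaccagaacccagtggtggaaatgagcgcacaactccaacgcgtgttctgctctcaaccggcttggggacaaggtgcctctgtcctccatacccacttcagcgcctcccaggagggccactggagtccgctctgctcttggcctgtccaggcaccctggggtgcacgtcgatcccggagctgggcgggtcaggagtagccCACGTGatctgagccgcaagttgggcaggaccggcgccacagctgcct
Rab17, chr1:90967668-90967917, minus strand: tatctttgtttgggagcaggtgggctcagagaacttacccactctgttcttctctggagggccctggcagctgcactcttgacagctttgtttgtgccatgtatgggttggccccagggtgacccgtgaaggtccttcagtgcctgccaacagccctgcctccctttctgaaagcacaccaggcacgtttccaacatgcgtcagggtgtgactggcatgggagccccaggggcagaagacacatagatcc
Atp7a, chrX:106026974-106027223, plus strand: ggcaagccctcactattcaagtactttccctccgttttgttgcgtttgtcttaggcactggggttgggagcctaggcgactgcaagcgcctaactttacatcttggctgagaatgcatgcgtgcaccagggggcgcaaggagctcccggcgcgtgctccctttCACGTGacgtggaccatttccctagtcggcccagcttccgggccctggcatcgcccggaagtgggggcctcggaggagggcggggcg
Hps3, chr3:20035311-20035560, minus strand: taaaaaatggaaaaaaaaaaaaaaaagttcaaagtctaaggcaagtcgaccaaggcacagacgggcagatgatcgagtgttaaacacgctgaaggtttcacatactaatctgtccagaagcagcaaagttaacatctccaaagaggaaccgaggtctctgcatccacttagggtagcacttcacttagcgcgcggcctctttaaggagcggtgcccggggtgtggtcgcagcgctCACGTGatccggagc
Vps33a, chr5:123573016-123573265, minus strand: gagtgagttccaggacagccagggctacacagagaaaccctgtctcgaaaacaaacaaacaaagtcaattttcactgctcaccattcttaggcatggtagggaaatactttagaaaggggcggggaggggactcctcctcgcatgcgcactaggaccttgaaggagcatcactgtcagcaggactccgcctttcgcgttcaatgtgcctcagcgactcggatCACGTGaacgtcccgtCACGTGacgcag
The first base of the site lay at -48 in Mlph, -87 in Atp7a and -15 in Hps3, counted from the start. In members not shown, sites close to the start were at -1 in Hps1, -8 in Bloc1s3, and -19 and -3 in Bloc1s1. Vps33a held 2 sites, at -28 and -12. The Rab17 stretch held none, but it precedes a RefSeq start that lies inside the GENCODE span of the gene, which reaches 90969661. Bases before that outer end were not searched. Of the 9 members with CACGTG, 4 were lower, 1 was higher and 4 did not pass the test described next. That test called 20.3% of all genes tested lower and 31.8% higher.

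Levels were compared with limma on log2(CPM + 0.5), two-sided, over the 11063 genes that averaged 1 CPM or more, with Benjamini-Hochberg adjustment over all of them and a threshold of 0.05. All 35 members passed that filter on low values. In sgNDUFS4, 10 of the 35 rose and 9 fell, while 16 did not pass. The background was high: 52.0% of all genes tested were called in either direction, 31.8% higher and 20.3% lower. The members' own share of 54.3% is near it in this test, though not under the other scalings given below. Library values separated the groups fully in 23 of the 35 members (65.7%), beside 57.2% of all genes tested. The median log2 difference of the members was -0.07, beside 0.06 over all genes tested. In bulk RNA, fewer cells of a type and less RNA per cell cannot be told apart.

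The members that rose were 3 subunits of AP-3 (Ap3b1, Ap3m1, Ap3s1), 3 of BLOC-1 (Bloc1s5, Bloc1s6, Snapin), Hps3 of BLOC-2, Ap1g1, Kif13a and Myo5a. Those that fell were Mlph, Rab17, Rab32, Rab38, Gpnmb, Atp7a, Myo7a, Bloc1s1 and Vps33a. TMM scaling, which moved the median of all genes by -0.06 on the log2 scale, gave 9 members higher and 16 lower. That is 71.4% called, against 50.7% of all genes (24.9% higher and 25.8% lower). On the recovered reads edgeR called 9 higher and 16 lower (71.4%, beside 50.5% of all genes). DESeq2 called 8 and 16 (68.6%, beside 48.5%). The members were chosen with earlier results of these data known, so these shares are descriptions. With TMM 36.0% of the member calls and 49.2% of all calls were higher. The 9 members lower in limma were all lower with TMM too, and 9 of the 10 higher members were higher, the exception being Ap3m1 (adjusted p = 0.06, limma after TMM).

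**Figure D1:**
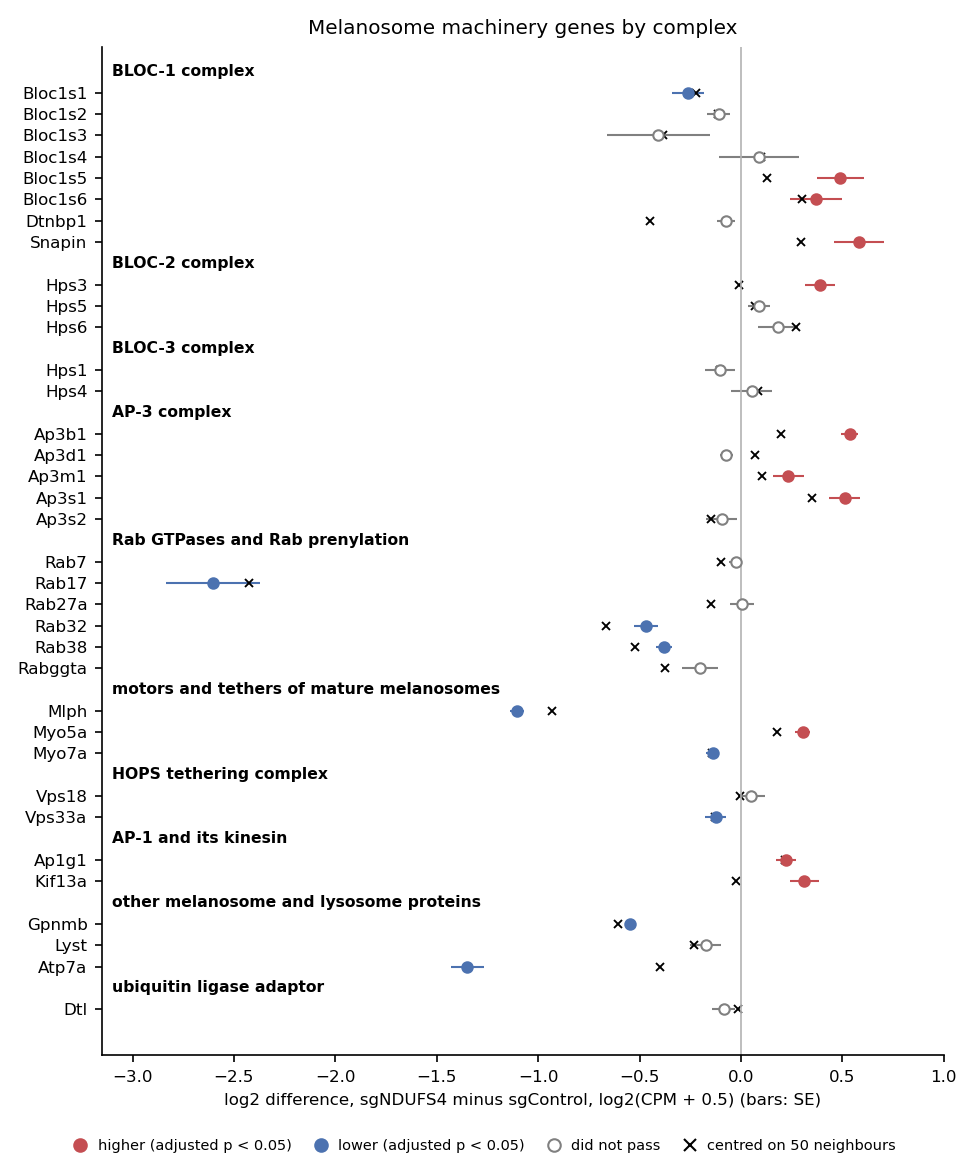
Log2 difference between sgNDUFS4 and sgControl for each of the 35 members, grouped by complex. Circles are the limma estimates with SE bars, filled where the adjusted p is under 0.05, and crosses are the values after each gene was centred on its 50 nearest tested neighbours. The adaptor and BLOC subunits that rose lie to the right of 0, and Rab17 lies farthest to the left at -2.60.

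Mature melanosomes are tied to actin by 3 proteins: Rab27a on the melanosome membrane, melanophilin (Mlph) as the adaptor, and the motor myosin Va (Myo5a). Their transcripts went 3 ways. Mlph (chromosome 1, 90915085 to 90951142, plus strand, GRCm38) was at 396, 372 and 388 CPM in sgControl and at 177, 181 and 178 CPM in sgNDUFS4. Every sgNDUFS4 library was far below every sgControl library, a log2 difference of -1.11 (SE 0.035, limma adjusted p = 4.5e-19). Myo5a (chromosome 9, 75071015 to 75223688) was at 249.6, 242 and 259 CPM in sgControl and at 300.3, 314 and 313 CPM in sgNDUFS4. The groups did not overlap and Myo5a rose by 0.30 on the log2 scale (SE 0.036, limma adjusted p = 8.2e-08), or by 0.18 after centring on its chromosomal neighbours. Rab27a (chromosome 9, 73044854 to 73097629) was at 59.9, 54.6 and 54.8 CPM in sgControl and at 57.4, 56.1 and 56.2 CPM in sgNDUFS4. These ranges overlap, and the log2 difference was 0.0043 (SE 0.058, limma adjusted p = 0.96), with a negative sign under TMM, quantile normalization, edgeR, DESeq2 and centring.

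Ratios within a library do not depend on scaling. The ratio of Mlph to Rab27a CPM was 6.61, 6.82 and 7.07 in sgControl and 3.08, 3.22 and 3.18 in sgNDUFS4. The ratio of Mlph to Myo5a CPM was 1.59, 1.54 and 1.50 in sgControl and 0.590, 0.576 and 0.570 in sgNDUFS4. Neither pair of groups overlapped. Of 5 ratios tested, both gave an exact two-sided permutation p of 0.1 (adjusted 0.17), and 0.1 is the smallest that 3 libraries against 3 allow. Per kb of exon, Mlph held rank 4 among the members in sgControl, at 71.9 ± 2.22 CPM per kb, and rank 7 in sgNDUFS4, at 33.4 ± 0.332 CPM per kb (SD, n = 3 each). Myo7a, the myosin VIIa that holds melanosomes in the retinal pigment epithelium, fell by 0.14 on the log2 scale (limma adjusted p = 0.00066), from 405.5 ± 4.76 to 368.2 ± 9.38 CPM (SD, n = 3 each).

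Rab17, a Rab of recycling endosomes that takes part in melanosome release from melanoma cells, lies beside Mlph on chromosome 1 (90958133 to 90969661, minus strand). The ends of Mlph and Rab17 are 6990 bases apart and face each other, and between them lies Prlh, with at most 1 read in any library. Rab17 was at 8.46, 6.26 and 6.02 CPM in sgControl and at 0.813, 0.418 and 0.963 CPM in sgNDUFS4. Behind these values were 170, 148 and 134 reads and 21, 10 and 25 reads. The mean was 9.45-fold lower, with a log2 difference of -2.60 (SE 0.232, limma adjusted p = 6.5e-10), which placed Rab17 at rank 31 and Mlph at rank 186 from the bottom of 11063 genes. The value for Rab17 ranged from -3.29 to -2.19 over the alternatives, lowest with DESeq2 and highest with a pseudocount of 1.

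Most of the other genes called around this pair were lower too, but not all. Within 500 kb of Mlph 9 other genes were tested, of which 5 fell, 1 rose and 3 did not pass, with a median of -0.20. Over all genes tested 20.3% fell and 31.8% rose, with a median of 0.06. Scly and Klhl30 fell by 0.69 and 0.64 on the log2 scale, and Cops8 and Lrrfip1 fell by 0.35 and 0.20. Espnl rose from 2.48 ± 0.820 to 11.1 ± 1.23 CPM (SD, n = 3 each). Col6a3, on the other side of Mlph, was under the filter, with 29, 27 and 31 reads in sgControl and 0, 1 and 0 in sgNDUFS4, and Ramp1 had 4, 12 and 9 reads and then none. The window was looked at because both Mlph and Rab17 had fallen, so it is a description.

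**Figure D2:**
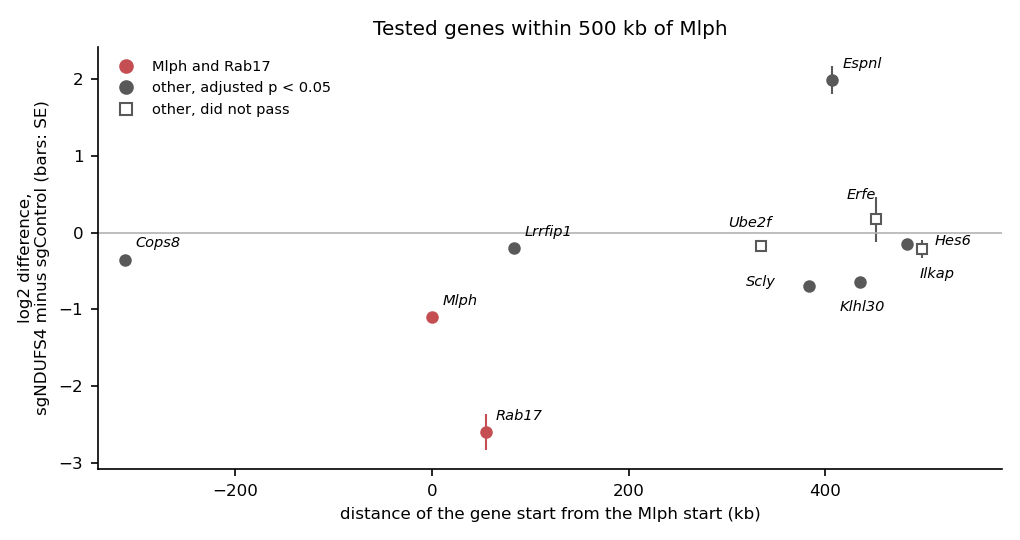
Log2 difference of the 11 tested genes within 500 kb of Mlph (SE bars) against the distance of each gene's start from that of Mlph in kb. Mlph and Rab17, in red, are the lowest points at -1.11 and -2.60, and Espnl is the highest at 1.99.

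Rab32 and Rab38 are close relatives that direct tyrosinase and Tyrp1 vesicles to the melanosome, and BLOC-3 is their activator. Both fell. Rab32 (chromosome 10, 10545002 to 10558265) was at 67.4, 64.1 and 63.3 CPM in sgControl and at 48.4, 47.3 and 44.7 CPM in sgNDUFS4. The groups did not overlap, and the log2 difference was -0.47 (SE 0.058, limma adjusted p = 2.2e-07). Rab38 (chromosome 7, 88430273 to 88491572), mutated in chocolate mice, fell by 0.38 on the log2 scale, from 219.8 ± 8.51 to 168.7 ± 3.04 CPM (SD, n = 3 each), with a limma adjusted p of 8.1e-09. The ratio of Rab32 to Rab38 CPM was 0.305, 0.304 and 0.279 in sgControl and 0.282, 0.285 and 0.265 in sgNDUFS4. The ratios overlap (exact permutation p = 0.3, adjusted 0.3), and since 0.1 is the smallest p possible here, this does not show that both fell equally. Rab38 was at 139 ± 5.40 and Rab32 at 27.8 ± 0.934 CPM per kb of exon in sgControl (SD, n = 3 each).

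The BLOC-3 subunits Hps1 and Hps4, which together activate Rab32 and Rab38, did not pass. Hps1 was at 34.5 ± 1.95 and 32.1 ± 0.945 CPM and Hps4 at 18.5 ± 2.47 and 19.2 ± 1.13 CPM in sgControl and sgNDUFS4 (SD, n = 3 each). Their ratio overlapped between the groups (exact permutation p = 0.2, adjusted 0.25). Per kb of exon they stood close together in sgControl, at 5.90 ± 0.334 and 4.69 ± 0.625 CPM per kb. Rab7, which acts on late endosomes and early melanosomes, measured 411.9 ± 6.87 and then 404.5 ± 9.87 CPM (SD, n = 3 each) and did not pass. Rabggta, the alpha subunit of the enzyme that attaches the lipid anchor to Rabs and the gene mutated in gunmetal mice, had a log2 difference of -0.20 (limma adjusted p = 0.058). With TMM both passed as lower, at -0.09 and -0.26 (limma adjusted p = 0.030 and 0.016).

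AP-3 picks cargo such as tyrosinase from endosomes, and in mice its loss gives the pearl and mocha coats. Of its 5 subunit genes here, 3 rose and 0 fell, and with TMM 2 rose and Ap3d1 fell. Each time 60% were called, beside 52.0% of all genes tested in limma and 50.7% with TMM. Ap3b1, the large beta subunit (chromosome 13, 94358960 to 94566317), was at 121, 120.0 and 123 CPM in sgControl and at 179, 176 and 173 CPM in sgNDUFS4. The groups lay well apart, and Ap3b1 rose by 0.54 on the log2 scale (SE 0.040, limma adjusted p = 2.2e-11), or by 0.20 after centring on neighbours. Its partner Ap3d1, the other large subunit, was at 274.0 ± 2.99 and 260.8 ± 3.14 CPM (SD, n = 3 each), with a log2 difference of -0.07 (limma adjusted p = 0.078). Per kb of exon Ap3d1 stood above Ap3b1 in sgControl, at 30.7 ± 0.335 against 26.7 ± 0.399 CPM per kb, and below it in sgNDUFS4, at 29.3 ± 0.352 against 38.7 ± 0.643 CPM per kb (SD, n = 3 each). In CPM Ap3d1 stood above Ap3b1 in both lines. The change of order thus rests on the annotated exon lengths, 8914 bases for Ap3d1 and 4548 for Ap3b1, which these cells may not all use.

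The small sigma subunit of AP-3 comes from either of 2 genes. Ap3s1 (chromosome 18, 46741876 to 46790826) was at 31.6, 35.7 and 28.8 CPM in sgControl and at 45.8, 44.2 and 47.1 CPM in sgNDUFS4. All sgNDUFS4 libraries were above all sgControl libraries, and Ap3s1 rose by 0.51 on the log2 scale (SE 0.075, limma adjusted p = 2.8e-06). Ap3s2 was at 35.3 ± 0.314 and 33.1 ± 2.86 CPM (SD, n = 3 each) and did not pass (limma adjusted p = 0.30). The ratio of Ap3s1 to Ap3s2 CPM was 0.894, 1.00 and 0.823 in sgControl and 1.29, 1.31 and 1.57 in sgNDUFS4. The groups did not overlap, with the smallest exact permutation p that the design allows, 0.1 (adjusted 0.17).

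Ap3m1, the medium subunit, rose by 0.23 on the log2 scale (limma adjusted p = 0.013), from 41.2 ± 5.74 to 48.3 ± 2.08 CPM (SD, n = 3 each), but the groups overlapped. Its call was lost without sgControl replicate 1 (0.17, limma adjusted p = 0.094), sgControl replicate 2 (0.18, adjusted p = 0.079) or sgNDUFS4 replicate 1 (0.20, adjusted p = 0.078), and in 7 other alternatives. Ap3m1 shares 29.8% of its exon length with Vcl on the other strand, and the counts do not keep the strand. Vcl was at 27.5 ± 3.32 and 37.8 ± 1.06 CPM (SD, n = 3 each), and its part in the result was not tested.

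**Figure D3:**
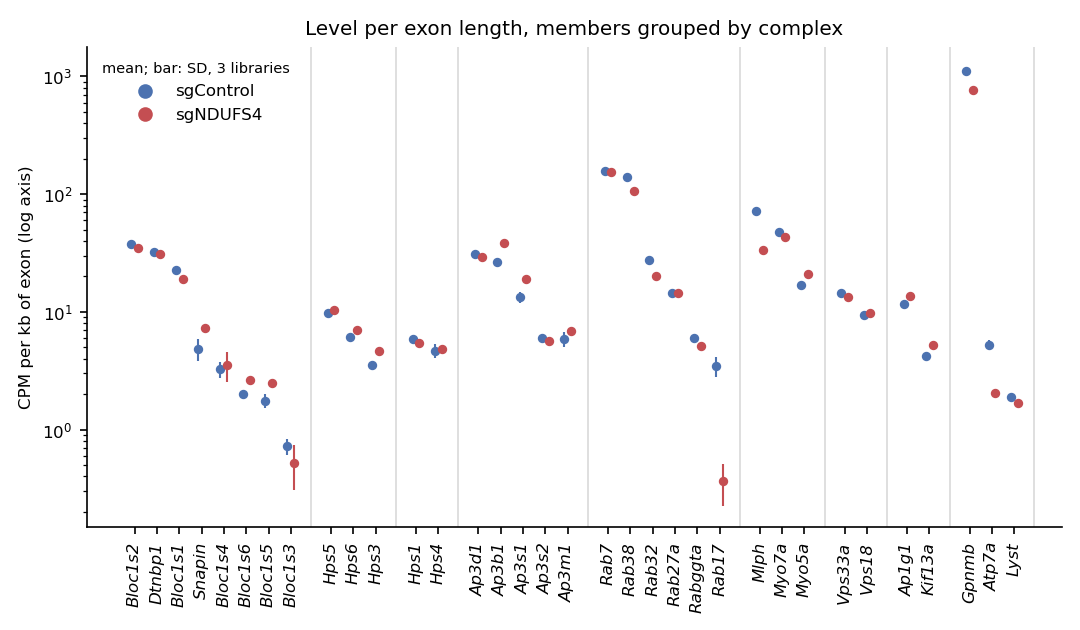
Mean level of 34 members (Dtl left out) in CPM per kb of exon on a log axis, with SD bars over 3 libraries, by complex and in falling order of the sgControl mean within each. Gpnmb stands above all others, and Ap3b1 passes Ap3d1 in sgNDUFS4 on this per-kb scale, though not in CPM.

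BLOC-1 has 8 subunits and sends cargo from endosomal tubules to the melanosome. Of the 8, 3 rose, 1 fell and 4 did not pass, and with TMM Bloc1s2 and Dtnbp1 passed as lower too. The shares called were 50% and, with TMM, 75%, beside 52.0% and 50.7% of all genes tested. Snapin (chromosome 3, 90488026 to 90491033), also a SNARE-binding protein, was at 9.66, 9.85 and 13.8 CPM in sgControl and at 17.5, 16.2 and 16.2 CPM in sgNDUFS4. One sgControl library was higher than the other two but still under every sgNDUFS4 library, and Snapin rose by 0.58 on the log2 scale (SE 0.124, limma adjusted p = 0.00032), but its call was lost after centring on neighbours (0.30, adjusted p = 0.057). It shares 15.5% of its exon length with Ilf2 on the other strand, which was at 173 ± 3.76 and 189.8 ± 6.74 CPM (SD, n = 3 each), and the part of Ilf2 in the result was not tested. Bloc1s5, the gene mutated in muted mice (chromosome 13, 38592842 to 38635109), was at 9.71, 12.4 and 11.9 CPM in sgControl and at 15.1, 15.9 and 17.3 CPM in sgNDUFS4. The groups did not overlap, and it rose by 0.49 on the log2 scale (SE 0.116, limma adjusted p = 0.00091), a call also lost after centring (0.13, adjusted p = 0.37).

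Bloc1s6, the pallidin gene, rose by 0.37 on the log2 scale (limma adjusted p = 0.018), from 7.87 ± 0.344 to 10.3 ± 0.583 CPM (SD, n = 3 each). That call was lost without sgControl replicate 1 (0.34, limma adjusted p = 0.0505) or sgNDUFS4 replicate 2 (0.33, adjusted p = 0.073), with quantile normalization (0.28, adjusted p = 0.069), in DESeq2 (0.33, adjusted p = 0.058) and after centring on neighbouring genes (0.30, adjusted p = 0.057). Bloc1s1 fell by 0.26 on the log2 scale (limma adjusted p = 0.0068), from 29.5 ± 1.02 to 24.5 ± 1.01 CPM (SD, n = 3 each). Bloc1s1 shares 55.9% of its exon length with Rdh5 on the same strand, which was at 7.49 ± 0.370 and 5.85 ± 0.848 CPM, and no source used here says how reads were divided between them. Bloc1s2 had a log2 difference of -0.11 (limma adjusted p = 0.11), and -0.16 without sgNDUFS4 replicate 2 (adjusted p = 0.043). Dtnbp1, the dysbindin gene mutated in sandy mice, was at 118, 119 and 126 CPM in sgControl and at 112, 114 and 119 CPM in sgNDUFS4, which overlap, and did not pass.

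Bloc1s3 was low, going from 2.30 ± 0.367 to 1.67 ± 0.693 CPM, and so was Bloc1s4, from 4.15 ± 0.626 to 4.54 ± 1.28 CPM (SD, n = 3 each). Neither passed (limma adjusted p = 0.18 and 0.72). Per kb of exon, the BLOC-1 transcripts spanned 52.3-fold in sgControl, from 0.722 CPM per kb for Bloc1s3 to 37.8 for Bloc1s2. The 5 AP-3 transcripts spanned 5.23-fold, the 3 BLOC-2 transcripts 2.76-fold and the 2 BLOC-3 transcripts 1.26-fold. Lengths are those of all annotated exons, which these cells may not all use.

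BLOC-2 (Hps3, Hps5, Hps6) steers the endosomal tubules to melanosomes. Hps3, mutated in cocoa mice, rose by 0.39 on the log2 scale (SE 0.073, limma adjusted p = 7.8e-05), from 32.0 ± 1.01 to 42.1 ± 3.65 CPM (SD, n = 3 each). Centred on neighbours whose median was 0.40, Hps3 was at -0.01 and was no longer called (limma adjusted p = 0.92). Hps5 and Hps6 had log2 differences of 0.09 and 0.18 and did not pass (limma adjusted p = 0.17 and 0.12). The AP-1 adaptor subunit Ap1g1 and the kinesin Kif13a, which together move endosomes outward to deliver Tyrp1, rose by 0.22 and 0.31 on the log2 scale (limma adjusted p = 0.00062 and 0.00069). Centred on its neighbours, Kif13a was at -0.02 and was no longer called. Ap1g1 shares 18.7% of its exon length with the antisense gene Gm17344, and its reads cannot be told apart from those of that gene there. Vps18 and Vps33a belong to HOPS, the tether that fuses vesicles with late endosomes and lysosomes. Vps18 did not pass, and Vps33a, mutated in buff mice, fell by 0.13 on the log2 scale at the edge of the threshold (limma adjusted p = 0.0496). The Vps33a call was lost without any single library, at values from -0.14 to -0.10 (limma adjusted p from 0.058 to 0.18).

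Gpnmb, a melanosome glycoprotein related to Pmel, was the most abundant member. It took rank 3 among all gene rows in sgControl and between 0.712% and 0.759% of reads there, against 0.494% to 0.504% in sgNDUFS4. Gpnmb (chromosome 6, 49036546 to 49070929) was at 7208, 7122 and 7587 CPM in sgControl and at 5041, 4941 and 5006 CPM in sgNDUFS4. The groups did not overlap, and Gpnmb fell by 0.55 on the log2 scale (SE 0.024, limma adjusted p = 3.3e-16). Macrophages also express Gpnmb. In these libraries 7 macrophage markers summed to between 8.62 and 15.4 CPM in sgControl and between 5.97 and 15.2 CPM in sgNDUFS4, with none at 0 in every library, Ptprc between 0 and 0.813 CPM and Csf1r between 0.251 and 1.79 CPM. Cd68 alone of the 3 macrophage markers tested passed, at -0.81 on the log2 scale (limma adjusted p = 0.0082), and the part of these markers in the Gpnmb value was not tested.

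Atp7a, the copper pump that supplies tyrosinase with its metal (chromosome X, 106027276 to 106124926), was at 49.7, 46.5 and 41.6 CPM in sgControl and at 16.3, 18.2 and 18.6 CPM in sgNDUFS4. All sgNDUFS4 libraries were far below, with a log2 difference of -1.35 (SE 0.083, limma adjusted p = 5.3e-13). Its 50 nearest tested neighbours had a median of -0.95, and centred on them Atp7a was at -0.40. Lyst, the Chediak-Higashi gene and beige in mice, which controls the size of lysosome-related organelles, measured 33.2 ± 1.62 and then 29.4 ± 1.48 CPM (SD, n = 3 each), and missed the threshold (limma adjusted p = 0.055) but passed as lower with TMM (adjusted p = 0.011). Dtl was at 66.5 ± 3.11 and 62.7 ± 2.90 CPM (SD, n = 3 each) and did not pass, though it passed as lower with TMM (adjusted p = 0.036), edgeR (0.036) and DESeq2 (0.044). Without Dtl, 10 of 34 genes were higher and 9 lower.

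**Figure D4:**
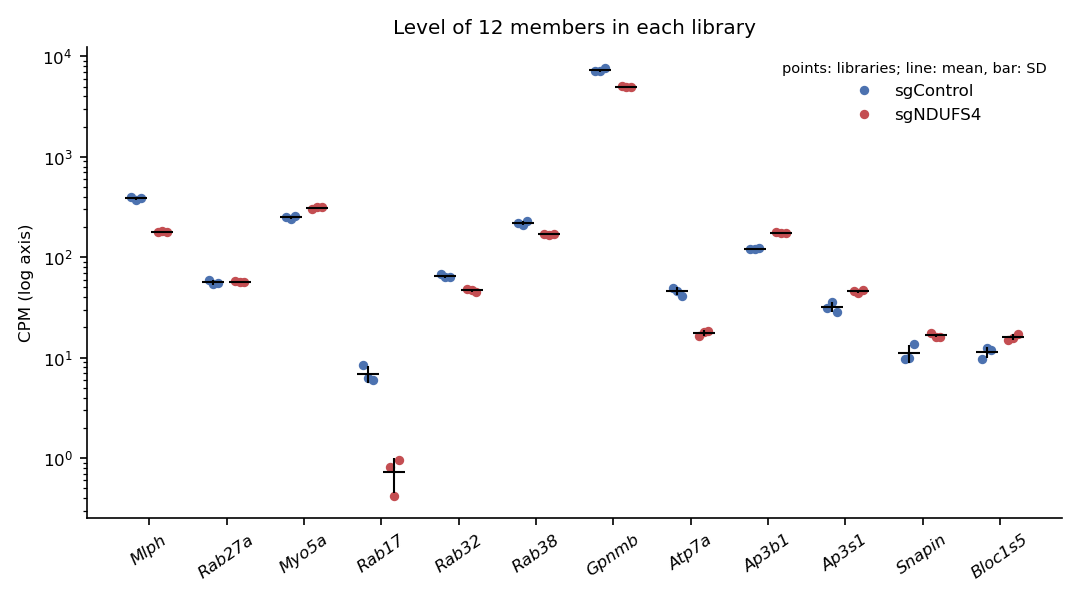
CPM of 12 members in each library on a log axis, with the group mean and SD. Mlph, Rab17, Rab32, Rab38, Gpnmb and Atp7a are lower in all sgNDUFS4 libraries, Myo5a, Ap3b1, Ap3s1, Snapin and Bloc1s5 are higher, and Rab27a overlaps.

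Several members lie where neighbouring genes moved together, so each gene was set beside the median log2 difference of its 50 nearest tested neighbours on the chromosome. That median was at least 0.25 in size for 7 of the 35 members (20%) and for 10.4% of the 10896 genes with such a value, a limit chosen after the values were seen. Over all genes the 5th and 95th percentiles of this median were -0.18 and 0.30, so the limit catches fewer low regions than high ones. Mlph and Rab17, with neighbours at -0.17, were under the limit but near the 5th percentile. The neighbours of Atp7a had a median of -0.95. The neighbours of Hps3, Dtnbp1, Bloc1s5, Ap3b1, Kif13a and Snapin, on chromosomes 3 and 13, had medians of 0.40, 0.38, 0.36, 0.34, 0.33 and 0.28. Of the 10 members that rose, 5 were among these. The matching share among all genes called higher was not counted, so this has no background beside it. Dtnbp1, Bloc1s5, Ap3b1 and Kif13a lie on chromosome 13, as does Ndufs4 itself, whose neighbours had a median of 0.46. Bloc1s5, Dtnbp1 and Kif13a begin between 38592842 and 46749087, so their neighbours may be partly the same genes. The 7 members are then not 7 separate regions. Any link of these regions to the edit was not tested.

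After each gene was centred on its neighbours, 5 members were higher and 12 lower, against 21.6% and 21.9% of the 10896 genes (43.5% in either direction). Ap3b1, Ap3s1, Myo5a and Ap1g1 were still higher, at 0.20, 0.35, 0.18 and 0.22, Hps6 passed as higher at 0.27, and 8 of the 9 members that fell were still lower, Vps33a being the exception. Hps3 and Kif13a went to -0.01 and -0.02, Bloc1s5 and Snapin to 0.13 and 0.30, and none of the 4 passed (limma adjusted p = 0.92, 0.84, 0.37 and 0.057). Atp7a was at -0.40 (limma adjusted p = 0.00047), a smaller fall than before. Dtnbp1 went the other way, from -0.07 to -0.45 (limma adjusted p = 7.4e-08). Mlph, Rab17, Rab32, Rab38 and Gpnmb were at -0.93, -2.43, -0.66, -0.52 and -0.61 and all passed.

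**Figure D5:**
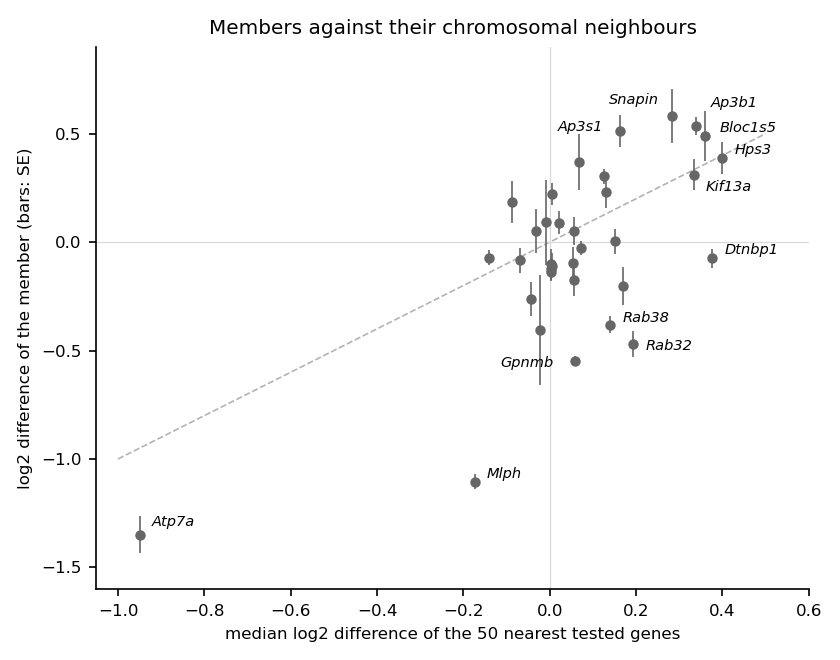
Log2 difference of each member (SE bars) against the median of its 50 nearest tested neighbours, with a dashed line where the values are equal and Rab17, at -2.60, left out. Atp7a lies at the far left with neighbours at -0.95, Hps3 and Kif13a lie on the line, and Mlph, Gpnmb, Rab32 and Rab38 lie well below it.

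Other genes of the pathway came from a list of 87 names, of which 74 were tested. Among these, 26 were higher, 15 lower and 33 without a call, and their median was 0.10. The share called, 55.4%, is near the 52.0% of all genes tested. TMM scaling gave 20 higher and 21 lower, or 55.4% beside 50.7% of all genes. A list of 7 other tethers held HOPS and CORVET subunits, and also Vps33b and Vipas39, which belong to neither complex. Of the 7, 5 rose (Vps11, Vps16, Vps39, Vps41, Vps8) and 0 fell. That is 71.4% called, beside 52.0% of all genes tested, of which 31.8% were higher and 20.3% lower. With TMM only Vps16, Vps41 and Vps8 rose and Vipas39 fell, or 57.1% called beside 50.7% of all genes. Of 5 tested regulators and effectors of Rab27, Rab32 and Rab38, 3 rose and 0 fell, or 60% called beside 52.0% of all genes tested. Among them Tbc1d10a, which inactivates Rab27, rose from 65.9 ± 3.41 to 101.4 ± 2.49 CPM (SD, n = 3 each). Both lists were chosen with earlier results of these data known, so these shares are descriptions.

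Of 15 melanosome cargo proteins and channels 7 rose and 6 fell, or 86.7% called beside 52.0% of all genes tested. This list and the list of transcription factors below were chosen with earlier results of these data known. Their shares are therefore descriptions and do not show an excess of calls. Pmel, the amyloid of melanosome fibrils, rose from 4358 ± 84.4 to 5507 ± 265 CPM, and its protease Bace2 rose from 192 ± 15.3 to 312 ± 6.35 CPM (SD, n = 3 each). Gpr143, the ocular albinism receptor on melanosomes, rose by 0.77 on the log2 scale. Tyr, the first enzyme of melanin synthesis, fell by 3.19, and Mlana and Dct fell by 0.42 and 0.31 on the same scale. A list of transcription factors had 7 tested: Mitf, Tfeb and Tfe3, and from other families Sox10, Pax3, Usf1 and Usf2. Of the 7, 1 rose (Mitf, by 0.16 on the log2 scale) and 4 fell (Tfe3, by 0.99, and Tfeb, Sox10 and Usf2). That is 71.4% called, beside 52.0% of all genes tested, and with TMM 0 rose and 5 fell. After centring on neighbours 1 was higher (Sox10, at 0.10, limma adjusted p = 0.016) and 3 were lower (Tfeb, Tfe3 and Usf2). Tfe3 lies on chromosome X, where its neighbours had a median of -0.74, and after centring it was at -0.25, while Mitf did not pass after centring, at 0.05, or with TMM. The limma adjusted p was 0.0047 for Mitf and at most 1.7e-10 for Pmel, Bace2, Gpr143, Tbc1d10a, Tyr, Mlana, Dct and Tfe3.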

How the data were processed

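The table holds CPM values per gene, scaled by the authors to each library, from paired-end poly(A) sequencing without strand, per the labels' protocols. The submitters' processing notes name HISAT2 and GRCm38, and no source used here gives the counter, annotation or filters. Values above 0 were whole multiples of the smallest in 99.98% to 100% of cases (tolerance 0.01), so reads were recovered, and 3 reads equal 0.116 to 0.149 CPM (counting error only). No pair of libraries looked like one library: between replicates, chi-square averaged 3.53 to 5.29 for each gene. The authors' comparison columns were not used.

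Main test: limma 3.58.1 (R 4.3.3) with variance trend, pseudocount 0.5. Alternatives: other pseudocounts, filters and scaling, no trend, a replicate block, each library left out, centring on 50 neighbours, and edgeR 4.0.16 (2723 genes higher, 2860 lower) and DESeq2 1.42.0 (2603 and 2767) on the recovered reads. On simulated data (11053 genes), limma recovered 33, 48, 50 and 50 of 50 genes changed 1.25-, 1.5-, 2- and 4-fold, with 10 false calls. No other genes were changed there, equal numbers rose and fell, and the dispersion was the same for all genes. In the real data 52.0% of genes were called, so these rates need not hold for them. Positions, exon lengths and overlaps came from GENCODE M21 (GRCm38), matched by symbol for 22250 of 22535 rows. All members are named; values in every library are given for called members with a log2 difference of at least 0.4 in size and for the Mlph complex. Of other pathway genes, the 4 with the smallest p in each direction are named, with Pmel, Tyr and Mitf; list members given by name beyond these were chosen after their values were seen. Of 8 listed macrophage markers 7 were used, since Itgam has more than 1 row. Vamp7 was not analysed here, and Rutbc1 is a synonym of Sgsm2. The members and lists were chosen with earlier results of these data known.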

Additional observations from a re-analysis of the deposited data

How the results depend on the processing

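Over 17 alternatives, 12 of the 19 called members passed in the same direction each time they were tested (Rab17 was under the filter of 5 CPM): Bloc1s1, Ap3b1, Ap3s1, Rab17, Rab32, Rab38, Mlph, Myo5a, Myo7a, Ap1g1, Gpnmb and Atp7a. The number lower was 16 with TMM, edgeR and DESeq2, where the median was -0.13 each time, and the number higher was 5 after centring. With a library left out, 8 to 10 members were higher and 8 to 9 lower, and the median lay between -0.080 and -0.027, the last without sgNDUFS4 replicate 3. Of the 16 members that did not pass, 8 passed in at least 1 alternative.

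Signs turned for 6 members that had not passed and, with centring, for Hps3 and Kif13a, which had been called higher. With TMM, quantile normalization, edgeR and DESeq2 in turn, Hps4 was at -0.0042, -0.023, -0.012 and -0.012, Rab27a at -0.054, -0.060, -0.056 and -0.056, and Vps18 at -0.0065, -0.014, -0.0047 and -0.0050. Quantile normalization put Bloc1s4 at -0.024 and Rab7 at 0.0028. Centring put Hps3, Kif13a, Rab27a and Vps18 at -0.011, -0.022, -0.15 and -0.0044 and Ap3d1 at 0.070. Rab27a was at -0.018, -0.016 and -0.0064 without sgControl replicate 2, sgControl replicate 3 or sgNDUFS4 replicate 1, and at most 0.047 otherwise. Without sgNDUFS4 replicate 1, Bloc1s4 and Vps18 were at -0.074 and -0.0064, and their highest values with a library left out were 0.31 and 0.084. The cause was not tested.

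Same-numbered libraries deviated together only weakly (correlations across genes of 0.056, 0.012 and 0.097), so the libraries were treated as unpaired. With the replicate block 10 members were higher and 9 lower, as without it, 3632 and 2309 of all genes were, and the 5 ratios gave an exact p of 0.25, the smallest such a paired test allows. sgNDUFS4 replicate 2 correlated best with sgControl replicate 1. What depth limits was not tested by level. Bloc1s3 rested on 31 to 64 reads per library and Bloc1s4 on 74 to 147.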
